A study of Homo sapiens with 12 samples.

Results

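Aldo-keto reductases are enzymes that use NADPH to reduce aldehydes and ketones to alcohols. The 7 described here, AKR1A1, AKR1B1, AKR1B10, AKR1C1, AKR1C2, AKR1C3 and AKR7A2, were taken from the gene-level count table by their gene symbol, 7 of its 55773 entries, and all 7 were among the 15691 genes with enough counts to be tested. They were chosen by family and with measured values of these data in view, among them the change of AKR1C1 between vehicle_Nutlin and vehicle libraries. The Nutlin response in vehicle cells is therefore given for the members as a description without a p-value, and the other comparisons are tested. The test of whether AG-120 changed the Nutlin response contains that response too, so for the members it is not free of the choice. Each AG-120 comparison uses the vehicle or the vehicle_Nutlin libraries of that response. Its p-values for the members are therefore not wholly free of the choice either.

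The family clears reactive aldehydes from lipid peroxidation and the diet, and it also interconverts active and inactive hormones. AKR1A1 and AKR7A2 are broad aldehyde reductases of most tissues, AKR1B1 is aldose reductase and makes sorbitol from glucose, and AKR1B10 is its close relative that also reduces retinaldehyde. The AKR1C enzymes act on steroids, prostaglandins and bile acid precursors. AKR1B10 and the AKR1C genes are textbook targets of NRF2 (gene NFE2L2), the transcription factor that answers oxidative and electrophilic stress through antioxidant response elements, and they are high in many liver and lung tumours.

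Poly(A) RNA was sequenced from RBE, an established human cholangiocarcinoma (bile duct cancer) line, to ask how 2-hydroxyglutarate (2-HG) changes the expression that p53 coordinates. All cells spent 22 days in vehicle (DMSO in the sample titles) or in 5 µM AG-120 (ivosidenib), an inhibitor of mutant IDH1 that blocks 2-HG production. They were then given DMSO, again by the titles, or 5 µM Nutlin for 72 hours. Nutlin is an inhibitor of MDM2 that activates p53. The 4 groups of 3 libraries are AG120_Nutlin (AG-120, then Nutlin), AG120 (AG-120 alone), vehicle_Nutlin (vehicle, then Nutlin) and vehicle. One cell line was used, and the labels do not say that replicates are separate cultures, so p-values measure the spread between libraries, which may be technical.

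Each library held between 16840161 and 27499433 counts (median 19221201). CDKN1A, the p53 target that encodes p21, averaged 10218 ± 167 CPM (counts scaled to library size) in AG120_Nutlin and 446 ± 57.9 CPM in AG120, and 8438 ± 838 CPM in vehicle_Nutlin and 379 ± 13.1 CPM in vehicle (mean ± SD, n = 3). The counts hold no measure of 2-HG. Libraries varied most in vehicle_Nutlin, where 7.58%, 11.8% and 15% of tested genes lay over 2-fold from the other libraries of the group in replicates 1, 2 and 3, and AG120 replicate 1 followed with 4.64%. In vehicle_Nutlin replicate 3 all 7 members lay above both other libraries of the group, by 0.27 to 0.58 from their mean on the log2 scale. Genes with transcripts of 1300 to 1900 bases, the range of most members, had a median deviation of 0.19 in that library. Fits without that library are given below, and the cause of its deviation was not tested. The defining biliary markers were present, with 7 or 8 of 9 at 1 CPM or more in every group and a summed level of 3080 to 3190 CPM in AG120_Nutlin, 3780 to 4510 in AG120, 3850 to 4910 in vehicle_Nutlin and 3240 to 3420 in vehicle. Of 7 hepatocyte markers 1 or 2 reached 1 CPM and ALB was at or near 0, while their sum was 315 to 325 CPM in AG120_Nutlin, 155 to 171 in AG120, 258 to 329 in vehicle_Nutlin and 115 to 129 in vehicle. The 6 fibroblast markers, 2 or 3 of them at 0, summed to 2.41 to 3.15 CPM in AG120_Nutlin, 38.6 to 43.4 in AG120, 2.90 to 5.29 in vehicle_Nutlin and 36.0 to 39.5 in vehicle, and the endothelial or the leukocyte markers to at most 1.06 CPM. The mitochondrial share of counts was 4.11% to 4.42% in AG120_Nutlin, 1.32% to 1.74% in AG120, 1.71% to 3.45% in vehicle_Nutlin and 1.02% to 1.35% in vehicle. The hepatocyte sum and the mitochondrial share were higher with Nutlin under both pretreatments, and the fibroblast sum was lower. The hepatocyte sum was almost all SERPINA1, at 319 CPM in AG120_Nutlin, 158 in AG120, 282 in vehicle_Nutlin and 122 in vehicle. TTR was also higher with Nutlin, but FGB was lower, at 0.48, 3.41, 0.51 and 2.05 CPM in the same order. The fibroblast sum was almost all COL1A1 and PDGFRB, and both were lower with Nutlin. These sums thus follow single genes and not whole marker lists. The biliary sum was higher with Nutlin in vehicle cells and lower with it in AG-120 cells. It was therefore also lower in AG120_Nutlin than in vehicle_Nutlin, 2 groups that are compared below. The part of these measures in the results was not tested. In bulk RNA a smaller share of some cells and less RNA per cell cannot be told apart.

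The AKR1C genes lie side by side on chromosome 10 and are near copies of each other, which limits how well their counts can be separated, so the stretches that tell them apart are shown first. Bases 133 to 192 of each coding sequence, from GENCODE release 29 transcripts, read 5′ to 3′ with capitals at the positions where the 3 genes are not all alike.
AKR1C1: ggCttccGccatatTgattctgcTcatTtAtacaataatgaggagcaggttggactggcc
AKR1C2: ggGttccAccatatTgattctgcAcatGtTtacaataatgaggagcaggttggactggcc
AKR1C3: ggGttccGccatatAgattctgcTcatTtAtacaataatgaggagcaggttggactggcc
AKR1C2 differed from AKR1C1 at 5 positions of this stretch and at 19 of the whole 972 coding bases (98.0% identity), and AKR1C3 differed from AKR1C1 at 2 positions here and at 83 of 972 (91.5% identity). Of all 150-base windows of the AKR1C2 coding sequence, the length of the reads, 4.98% also occurred exactly in AKR1C1 and 58.8% differed from it by at most 2 bases. Over whole transcripts more was shared: 20.6% of AKR1C2 windows occurred exactly in AKR1C1, and 11.3% of AKR1C1 windows in AKR1C2. AKR1C3 shared 2.67% of its coding windows exactly with AKR1C2. The members outside the AKR1C genes shared none: AKR1B1 and AKR1B10, the next closest pair, were 76.1% identical.

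AKR1C1 and AKR1C2 also start from near-identical sequence, shown because all 3 AKR1C genes stood higher in every Nutlin library than in any other. The 250 bases before each start site, from RefSeq promoter windows on GRCh38.p14, read 5′ to 3′ on the strand of the gene, with capitals at the only CCAAT box match (inverted, ATTGG). They lie at chr10:4963165-4963414 on the plus strand for AKR1C1, chr10:5003858-5004107 on the minus strand for AKR1C2 and chr10:5094164-5094413 on the plus strand for the second of 2 listed AKR1C3 starts.
AKR1C1: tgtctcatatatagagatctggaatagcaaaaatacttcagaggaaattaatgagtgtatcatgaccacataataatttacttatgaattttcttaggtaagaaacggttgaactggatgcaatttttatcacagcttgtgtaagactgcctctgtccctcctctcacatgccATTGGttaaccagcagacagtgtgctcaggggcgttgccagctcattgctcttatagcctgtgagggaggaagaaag
AKR1C2: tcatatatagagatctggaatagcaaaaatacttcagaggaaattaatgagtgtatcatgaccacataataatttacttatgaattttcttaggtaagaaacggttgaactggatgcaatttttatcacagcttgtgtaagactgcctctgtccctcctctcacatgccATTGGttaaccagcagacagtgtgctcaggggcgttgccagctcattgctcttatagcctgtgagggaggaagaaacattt
AKR1C3: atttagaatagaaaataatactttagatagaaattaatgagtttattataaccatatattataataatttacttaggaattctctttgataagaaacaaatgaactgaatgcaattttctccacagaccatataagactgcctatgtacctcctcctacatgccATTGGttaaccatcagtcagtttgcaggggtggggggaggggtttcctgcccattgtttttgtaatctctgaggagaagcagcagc
The AKR1C1 and AKR1C2 windows shared an identical run of 245 bases, and AKR1C3 was 69.2% identical to AKR1C1. On both strands of windows from 250 bases before to 50 after a start, the CCAAT box (CCAAT) was found in 35.7% of 27305 RefSeq promoters, the antioxidant response element core (TGACNNNGC) in 13.6%, the AP-1 site (TGANTCA) in 7.76%, the TATA box (TATAAA) in 12% and a p53 half-site in 6.54%. Windows were listed for 6 members, all but AKR1B10, 9 windows in all. The AKR1C windows held the CCAAT box and none of the other motifs, apart from an inverted TATA match before the other AKR1C3 start. AKR7A2 held 3 matches of the antioxidant response element core in each of 2 windows that start 2 bases apart, AKR1B1 held a CCAAT box and AKR1A1 held none of the 5 motifs. These matches are letters in short windows, and sites farther off were not searched.

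AKR1C1 and AKR1C3 rose with Nutlin in AG-120 cells, and the few counts of AKR1C2 were higher there too. AKR1C1 encodes a hydroxysteroid dehydrogenase that inactivates progesterone, and its deposited entry runs from 4934796 to 5025475 on chromosome 10 (hg19). It had 189, 179.6 and 178 CPM in AG120_Nutlin libraries, 6.21, 7.06 and 5.95 CPM in AG120, 124.4, 124.2 and 181 CPM in vehicle_Nutlin and 5.46, 4.13 and 3.67 CPM in vehicle. Every Nutlin library lay far above every library without Nutlin, and vehicle_Nutlin replicate 3 reached the AG120_Nutlin range. Between AG120_Nutlin and AG120 it rose 28.4-fold, by 4.83 ± 0.19 on the log2 scale (SE; edgeR adjusted p = 3.227e-10). The change in vehicle cells was 32.6-fold (5.03 ± 0.19).

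AKR1C3, which makes testosterone from androstenedione and is a prostaglandin F synthase, had the highest mean level of the AKR1C genes in all 4 groups. Its entry runs from 5077546 to 5149878 on chromosome 10. It had 258, 252 and 269 CPM in AG120_Nutlin libraries, 50.05, 57.9 and 57.85 CPM in AG120, 181, 203 and 286 CPM in vehicle_Nutlin and 35.4, 35.5 and 32.6 CPM in vehicle. The Nutlin libraries again stood above all others, and the 3 AG120 libraries all stood above the 3 vehicle libraries. In vehicle_Nutlin the lowest AKR1C3 library (180.96 CPM) lay just below the highest AKR1C1 library (181.33 CPM). AKR1C3 rose 4.71-fold between AG120_Nutlin and AG120 (log2 2.23 ± 0.15 SE, edgeR adjusted p = 4.235e-08), and its change in vehicle cells was 6.47-fold (2.69 ± 0.15).

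AKR1C2, which reduces dihydrotestosterone and binds bile acids, held few counts (chromosome 10, 5029967 to 5060223). It had 15, 36 and 18 counts in AG120_Nutlin libraries, 2, 6 and 4 in AG120, 16, 15 and 25 in vehicle_Nutlin and 6, 4 and 4 in vehicle. The Nutlin libraries did not overlap the others, but the whole gene rested on 151 counts. It passed the count filter only through the Nutlin libraries, so its Nutlin response is a description without a test. The fitted log2 value was 2.66 ± 0.48 (SE) between AG120_Nutlin and AG120 and 2.10 ± 0.48 in vehicle cells.

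Because AKR1C2 reads can resemble AKR1C1 reads, the AKR1C2 level and its change are uncertain. AKR1C2 held 0.698% of the AKR1C1 and AKR1C2 counts in AG120_Nutlin (95% exact Clopper-Pearson interval 0.544% to 0.883%), 2.90% in AG120 (1.51% to 5.01%), 0.642% in vehicle_Nutlin (0.485% to 0.833%) and 4.62% in vehicle (2.55% to 7.63%), and these intervals cover counting error only. How the counting treated reads that match both genes is not given in the sources used here. Summing the counts of the 3 AKR1C genes removes errors in which gene a read was given to, but does not restore reads left uncounted as shared. The sum was 7.17-fold higher in AG120_Nutlin than in AG120 (log2 2.84 ± 0.15 SE) and 9.39-fold higher in vehicle_Nutlin than in vehicle (3.23 ± 0.15). AKR1C3 held most of the summed counts in every group. An antisense entry within AKR1C2, RP11-499O7.7, held 5 counts over all libraries, and whether counting used strand is not given.

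AKR1B10 rose with Nutlin and was the one member that passed the test for AG-120 under Nutlin in the fit of all 12 libraries. It lies on chromosome 7, 134212344 to 134226160, beside AKR1B1. It had 397, 405 and 427 CPM in AG120_Nutlin libraries, 93.2, 84.0 and 80.5 CPM in AG120, 206, 198 and 279.5 CPM in vehicle_Nutlin and 61.3, 60.7 and 55.1 CPM in vehicle. The 4 groups did not overlap at any point: vehicle was lowest, then AG120, vehicle_Nutlin and AG120_Nutlin. AKR1B10 rose 4.77-fold between AG120_Nutlin and AG120 (log2 2.25 ± 0.13 SE, edgeR adjusted p = 1.099e-08), and its change in vehicle cells was 3.86-fold (1.95 ± 0.13). The pseudogene AKR1B10P1 held between 0.399% and 1.23% as many counts as AKR1B10 in each library.

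AKR1B1 fell and AKR1A1 rose with Nutlin in AG-120 cells, both by less than AKR1C1 and AKR1C3. AKR1B1, aldose reductase (chromosome 7, 134127102 to 134144036), had 384, 384 and 391 CPM in AG120_Nutlin libraries, 443, 611 and 625 CPM in AG120, 385, 377 and 506 CPM in vehicle_Nutlin and 582, 582 and 564 CPM in vehicle. It was lower in every Nutlin library than in every library without Nutlin of the same pretreatment, with AG120 replicate 1 the lowest of those without Nutlin. It fell by 0.54 ± 0.14 on the log2 scale between AG120_Nutlin and AG120 (SE; edgeR adjusted p = 0.005744), and the change in vehicle cells was -0.45 ± 0.14. AKR1A1, an aldehyde reductase (chromosome 1, 46016215 to 46035721), had 143, 136 and 140.3 CPM in AG120_Nutlin, 76.7, 72.2 and 66.1 CPM in AG120, 139, 149 and 203.5 CPM in vehicle_Nutlin and 65.7, 69.3 and 63.3 CPM in vehicle. Its Nutlin libraries did not overlap those without Nutlin. It rose 1.95-fold between AG120_Nutlin and AG120 (log2 0.96 ± 0.13 SE, edgeR adjusted p = 3.159e-05), and its change in vehicle cells was 2.48-fold (1.31 ± 0.13).

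AKR7A2, which reduces succinic semialdehyde and aflatoxin dialdehyde (chromosome 1, 19630459 to 19638640), was the 1 member that did not pass for Nutlin in AG-120 cells. It had 40.9, 43.0 and 41.4 CPM in AG120_Nutlin libraries, 52.2, 51.0 and 52.2 CPM in AG120, 42.9, 49.4 and 65.9 CPM in vehicle_Nutlin and 53.95, 55.3 and 48.7 CPM in vehicle. The AG120_Nutlin libraries lay below all AG120 libraries, while vehicle_Nutlin libraries spread across the vehicle range. The log2 fold change between AG120_Nutlin and AG120 was -0.31 ± 0.13 (SE) and did not pass (edgeR adjusted p = 0.06188), with a 95% interval of -0.62 to -0.01. In vehicle cells it was 0.0037 ± 0.13.

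**Figure D1:**
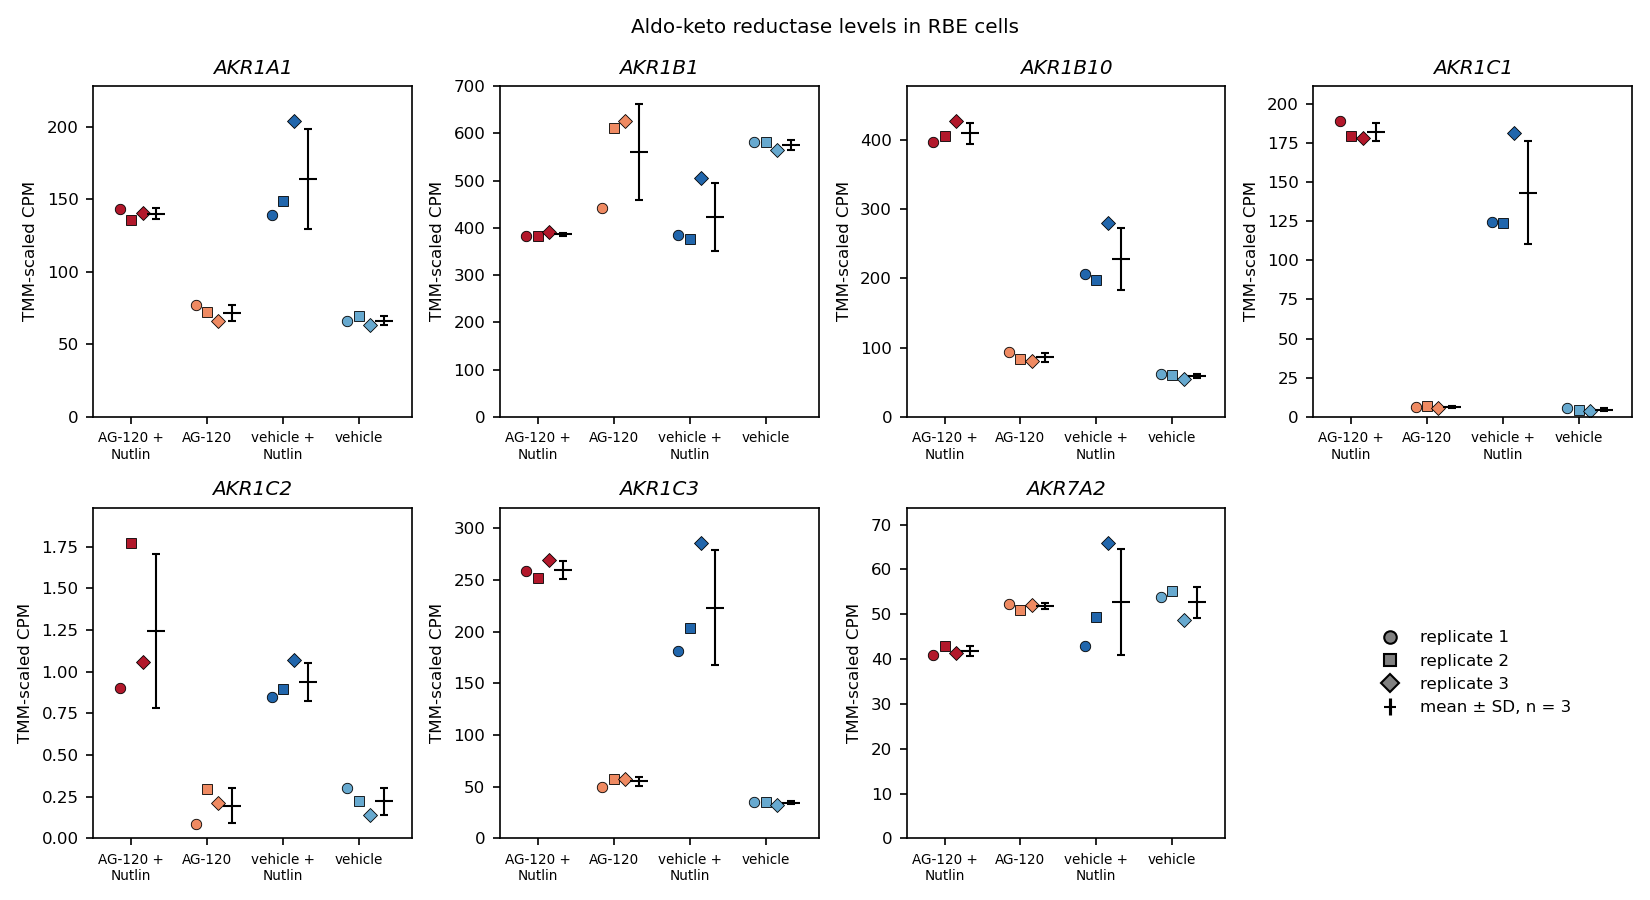
Levels of the 7 aldo-keto reductases in TMM-scaled CPM (y axis, from 0, a scale per gene) in the AG-120 + Nutlin, AG-120, vehicle + Nutlin and vehicle libraries (x axis). Symbols are replicates and bars are mean ± SD with n = 3. AKR1C1 stands at 178 to 189 CPM in AG-120 + Nutlin and at 5.95 to 7.06 CPM in AG-120, and the diamond of vehicle + Nutlin replicate 3 is the highest of its group in every panel.

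Of the 6 members other than AKR1C2, 5 passed the test for Nutlin in AG-120 cells, 4 higher and 1 lower. Of all genes tested, 55.7% passed this test, 27.0% higher and 28.8% lower, so that to pass was common. Libraries with and without Nutlin did not overlap for 4 of these members above and 2 below, beside 35.1% and 35.1% of all genes. The median log2 fold change of the 6 was 1.60 and that of all tested genes was 0.0013, with a median size of 0.58. In vehicle cells, where the members are not tested, 53.9% of all genes passed (26.8% higher, 27.1% lower), and the groups did not overlap for 28.4% of genes above and 30.9% below. The comparisons with the same pretreatment use their own libraries, but each shares libraries with an AG-120 comparison.

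The order of the members by level also differed between AG120_Nutlin and AG120: AKR1C3 stood above AKR1A1 in AG120_Nutlin and below it in AG120, by coding and by transcript length. Per kilobase of coding sequence, AKR1B10 led in AG120_Nutlin with 431 ± 16.0 CPM, ahead of AKR1B1 with 406 ± 4.2, AKR1C3 with 267 ± 9, AKR1C1 with 187.5 ± 5.94, AKR1A1 with 143 ± 3.84, AKR7A2 with 38.6 ± 1.00 and AKR1C2 with 1.28 ± 0.48 (mean ± SD, n = 3). In AG120 the order was AKR1B1 with 589 ± 107 CPM per kilobase, AKR1B10 with 90.3 ± 6.88, AKR1A1 with 73.3 ± 5.44, AKR1C3 with 56.8 ± 4.63, AKR7A2 with 48.0 ± 0.64, AKR1C1 with 6.59 ± 0.60 and AKR1C2 with 0.20 ± 0.11. No neighbours in these 2 orders overlapped between libraries. In vehicle_Nutlin AKR1B1 led with 445 ± 75.8 CPM per kilobase, and AKR1B10 (239 ± 47.4), AKR1C3 (229.7 ± 56.8), AKR1A1 (167.5 ± 35.6) and AKR1C1 (147 ± 33.9) overlapped from neighbour to neighbour. AKR7A2 (48.8 ± 11) and AKR1C2 (0.96 ± 0.12) stood below them. In vehicle AKR1B1 led with 606 ± 11, followed by AKR1A1 with 67.6 ± 3.10 and AKR1B10 with 62.1 ± 3.56 CPM per kilobase. AKR7A2 with 48.7 ± 3.22, AKR1C3 with 35.5 ± 1.72, AKR1C1 with 4.55 ± 0.96 and AKR1C2 with 0.23 ± 0.08 came next in vehicle, again with no overlap between neighbours. Other places in the order turned with the length used. Per kilobase of whole transcript, AKR1B1 led AKR1B10 in AG120_Nutlin with 274 ± 2.83 CPM and 258 ± 9.59 CPM, and AKR1C1, whose transcript has 6705 bases, stood below AKR7A2 with 27.2 ± 0.86 CPM and 30.6 ± 0.79 CPM. In vehicle AKR7A2 was then second with 38.6 ± 2.55 CPM per kilobase of transcript and overlapped AKR1B10 with 37.1 ± 2.13.

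AG-120 alone left no member past the test in edgeR, although AKR1C3, AKR1B10 and AKR1C1 stood higher in every AG120 library than in any vehicle library. AKR1C3 averaged 55.3 ± 4.50 CPM in AG120 and 34.5 ± 1.67 CPM in vehicle, 1.60-fold higher (log2 0.68, 95% interval 0.35 to 1.01, edgeR adjusted p = 0.1524). AKR1B10 averaged 85.9 ± 6.55 CPM in AG120 and 59.0 ± 3.39 CPM in vehicle, 1.46-fold higher (0.54, 0.25 to 0.83, edgeR adjusted p = 0.2271). AKR1C1 averaged 6.41 ± 0.58 CPM in AG120 and 4.42 ± 0.93 CPM in vehicle, also 1.46-fold higher (0.54, 0.12 to 0.97, edgeR adjusted p = 0.448). Groups apart in this direction were also seen for 11.4% of all tested genes, and in the other direction for 0 members and 10.3% of genes.

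The libraries of AG120 and vehicle overlapped for the other members. The log2 fold changes were 0.12 for AKR1A1 (95% interval -0.18 to 0.41), -0.04 for AKR1B1 (-0.37 to 0.28), -0.14 for AKR1C2 (-1.49 to 1.20) and -0.02 for AKR7A2 (-0.33 to 0.28). With edgeR 0 of 7 members passed, beside 8 genes or 0.0510% of all tested, and 3 members were under 0.05 before adjustment, beside 1254 genes. DESeq2 called 2 members higher, AKR1C3 (adjusted p = 0.01493) and AKR1B10 (adjusted p = 0.04497). The same pair passed in edgeR when only these 2 groups were fitted or no count filter was used. AKR1C1 passed as well when vehicle_Nutlin replicates 2 and 3 and AG120 replicate 1 were left out (edgeR adjusted p = 0.01785).

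Under Nutlin, AG-120 raised AKR1B10. It averaged 409.7 ± 15.2 CPM in AG120_Nutlin and 228 ± 45.1 CPM in vehicle_Nutlin (SD, n = 3), 1.80-fold higher (log2 0.85 ± 0.13 SE, 95% interval 0.56 to 1.14, edgeR adjusted p = 0.005052), with all 3 AG120_Nutlin libraries above all vehicle_Nutlin libraries. Groups apart in this direction were also seen for 14.2% of all tested genes, and in the other direction for 0 members and 14.1% of genes. AKR1B10 was 1 of 7 members called, beside 2.36% of all genes (0.433% higher, 1.93% lower). The call was lost when only these 2 groups were fitted, without the other groups' estimate of the spread (edgeR adjusted p = 0.1174, with a range of 3.519e-08 to 0.1174 over all alternatives).

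No other member passed under Nutlin. AKR1C1 averaged 182 ± 5.77 CPM in AG120_Nutlin and 143 ± 32.9 CPM in vehicle_Nutlin (log2 0.35, 95% interval -0.01 to 0.70, edgeR adjusted p = 0.2392). AKR1C3 averaged 259.9 ± 8.74 CPM in AG120_Nutlin and 223 ± 55.2 CPM in vehicle_Nutlin (0.22, -0.11 to 0.54, edgeR adjusted p = 0.3967). These results turned on 1 library: without vehicle_Nutlin replicate 3 AKR1C1 was 0.55 and AKR1C3 0.44 higher on the log2 scale, and both passed (edgeR adjusted p = 0.006142 and 0.007153). AKR1B10 stood at 1.02 there.

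The remaining members gave log2 values under Nutlin of -0.23 for AKR1A1 (95% interval -0.52 to 0.06), -0.13 for AKR1B1 (-0.46 to 0.19), 0.41 for AKR1C2 (-0.51 to 1.34) and -0.34 for AKR7A2 (-0.64 to -0.03, edgeR adjusted p = 0.1879). AKR7A2 was at -0.47 and passed without vehicle_Nutlin replicate 1 (edgeR adjusted p = 0.04364), and at -0.14 without replicate 3. AKR1B1 was at 0.02 without vehicle_Nutlin replicate 3, a change of sign.

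**Figure D2:**
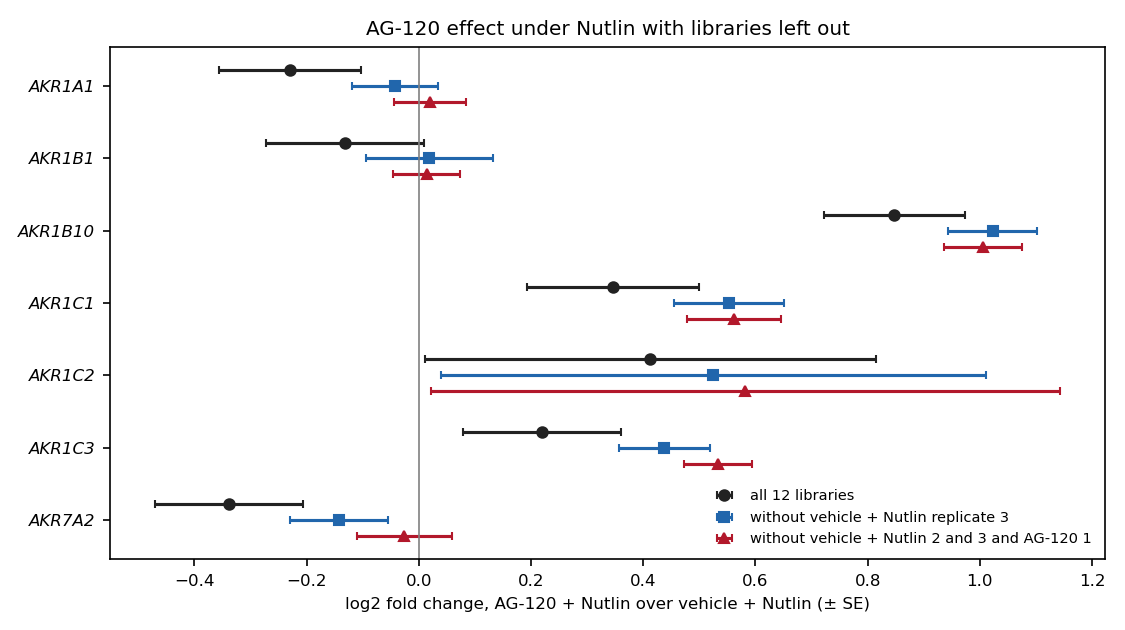
Log2 fold change of each member between AG-120 + Nutlin and vehicle + Nutlin (x axis, ± SE) in the fit of all 12 libraries, without vehicle + Nutlin replicate 3, and without vehicle + Nutlin replicates 2 and 3 and AG-120 replicate 1 together. AKR1B10 stays above 0 in all 3 fits, AKR1C1 moves to 0.55 and AKR1C3 to 0.44 without replicate 3, and AKR1A1 and AKR1B1 lie near 0 without those 3 libraries.

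Whether AG-120 changed the Nutlin response itself was asked with the interaction term, the response in AG-120 cells minus that in vehicle cells. The term subtracts the vehicle response that was known when the members were chosen. Its values and p-values for the members are therefore not free of that choice. No member passed in edgeR, beside 57 genes or 0.363% of all tested (0.0319% higher, 0.331% lower), and 1 member, AKR1C3, was under 0.05 before adjustment, beside 1730 genes. The differences were 0.31 for AKR1B10 (95% interval -0.10 to 0.71), -0.20 for AKR1C1 (-0.75 to 0.35), -0.46 for AKR1C3 (-0.92 to 0.0050) and 0.56 for AKR1C2 (-1.09 to 2.20). They were -0.35 for AKR1A1 (-0.76 to 0.07), -0.09 for AKR1B1 (-0.55 to 0.37) and -0.31 for AKR7A2 (-0.75 to 0.12). Without vehicle_Nutlin replicate 3 the AKR1B10 difference was 0.48 and passed (edgeR adjusted p = 0.03571), against a range of 0.001647 to 0.7497 over all alternatives.

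**Figure D3:**
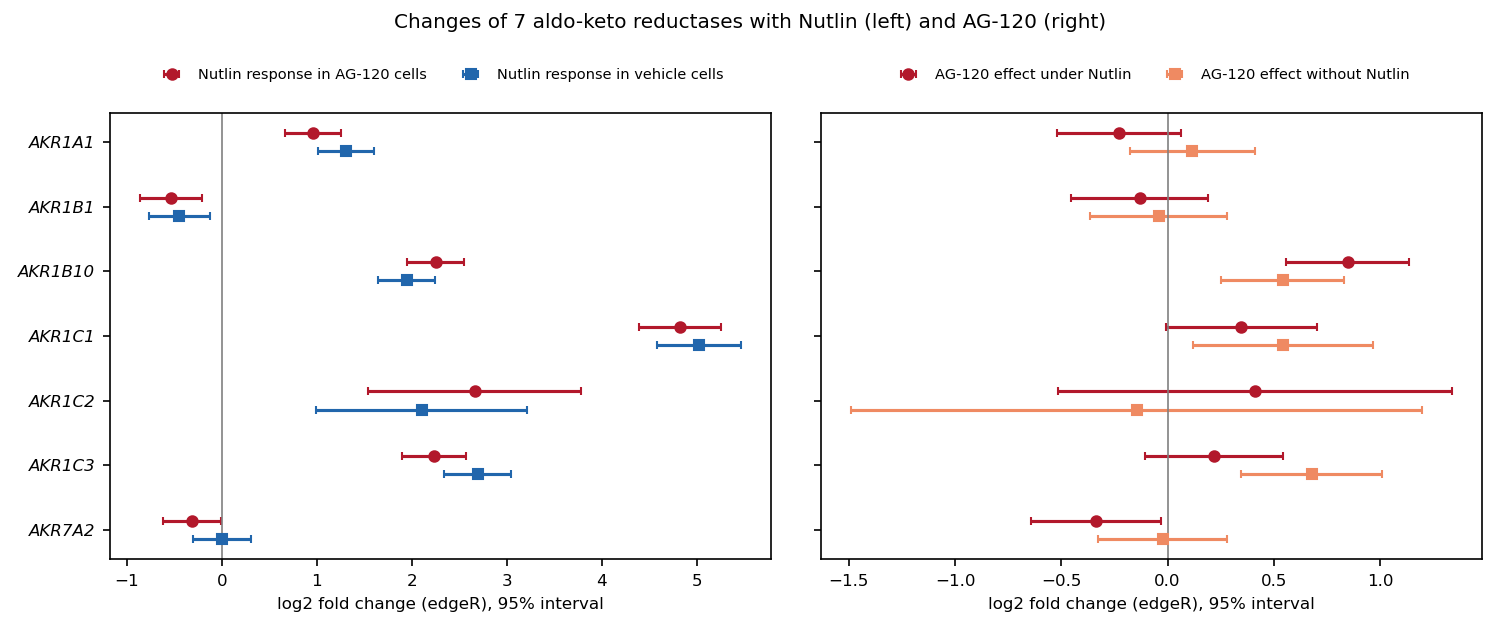
Log2 fold changes with 95% intervals (x axes) for each member. On the left are the Nutlin responses in AG-120 and in vehicle cells, where AKR1C1 is at 4.83 and 5.03 and AKR1B1 at -0.54 and -0.45, and on the right are the AG-120 effects under and without Nutlin, where AKR1B10 is at 0.85 and 0.54.

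Few other aldo-keto reductases were expressed. Of 14 further family entries looked for, 12 were in the table and 3 had enough counts to test. The pseudogene AKR1B10P1 averaged 2.39 CPM in AG120_Nutlin and 0.52 CPM in AG120. The potassium channel subunits KCNAB1 and KCNAB2, which share the reductase fold, were at -0.25 and -0.09 and did not pass. AKR1C4, the AKR1C enzyme of hepatocytes, and AKR1E2 had 0 counts in all 12 libraries, and AKR1B15 had 1 to 18 counts per library.

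Other NRF2 targets rose with Nutlin more often than they fell. Of 26 tested outside the family, 16 rose and 5 fell between AG120_Nutlin and AG120, beside 27.0% and 28.8% of all genes, with a median log2 fold change of 0.55 beside 0.0013 for all genes. HMOX1, the haem oxygenase, rose by 4.70, OSGIN1 by 2.10, the epoxide hydrolase EPHX1 by 1.73 and the exporter ABCC2 by 1.21. Between AG120 and vehicle none of the 26 passed, with a median of 0.10.

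Under Nutlin, 6 of these 26 targets were higher with AG-120 and 0 lower, beside 0.433% and 1.93% of all genes, with a median of 0.16 beside -0.0050 for all genes. HMOX1 was at 0.69, the quinone reductase NQO1 at 0.51, ABCC2 at 0.41, and GCLM and GCLC, the subunits of the glutathione-synthesis ligase, at 0.35 each. HMOX1 averaged 208 ± 3.10 CPM in AG120_Nutlin and 129 ± 3.02 CPM in vehicle_Nutlin. The count was 0 when only these 2 groups were fitted and in each fit without an AG120_Nutlin replicate, 3 with DESeq2 size factors, 3 without vehicle_Nutlin replicate 2, 11 without vehicle_Nutlin replicate 3 and 12 without vehicle_Nutlin replicates 2 and 3 and AG120 replicate 1. HMOX1 was the 1 of 26 that passed in the interaction (0.96 ± 0.18 SE, edgeR adjusted p = 0.04483). None of the 26 passed there without vehicle replicate 1, 2 or 3, vehicle_Nutlin replicate 1 or 2, AG120 replicate 1 or 2, or AG120_Nutlin replicate 1, 2 or 3, and 5 passed without vehicle_Nutlin replicate 3.

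**Figure D4:**
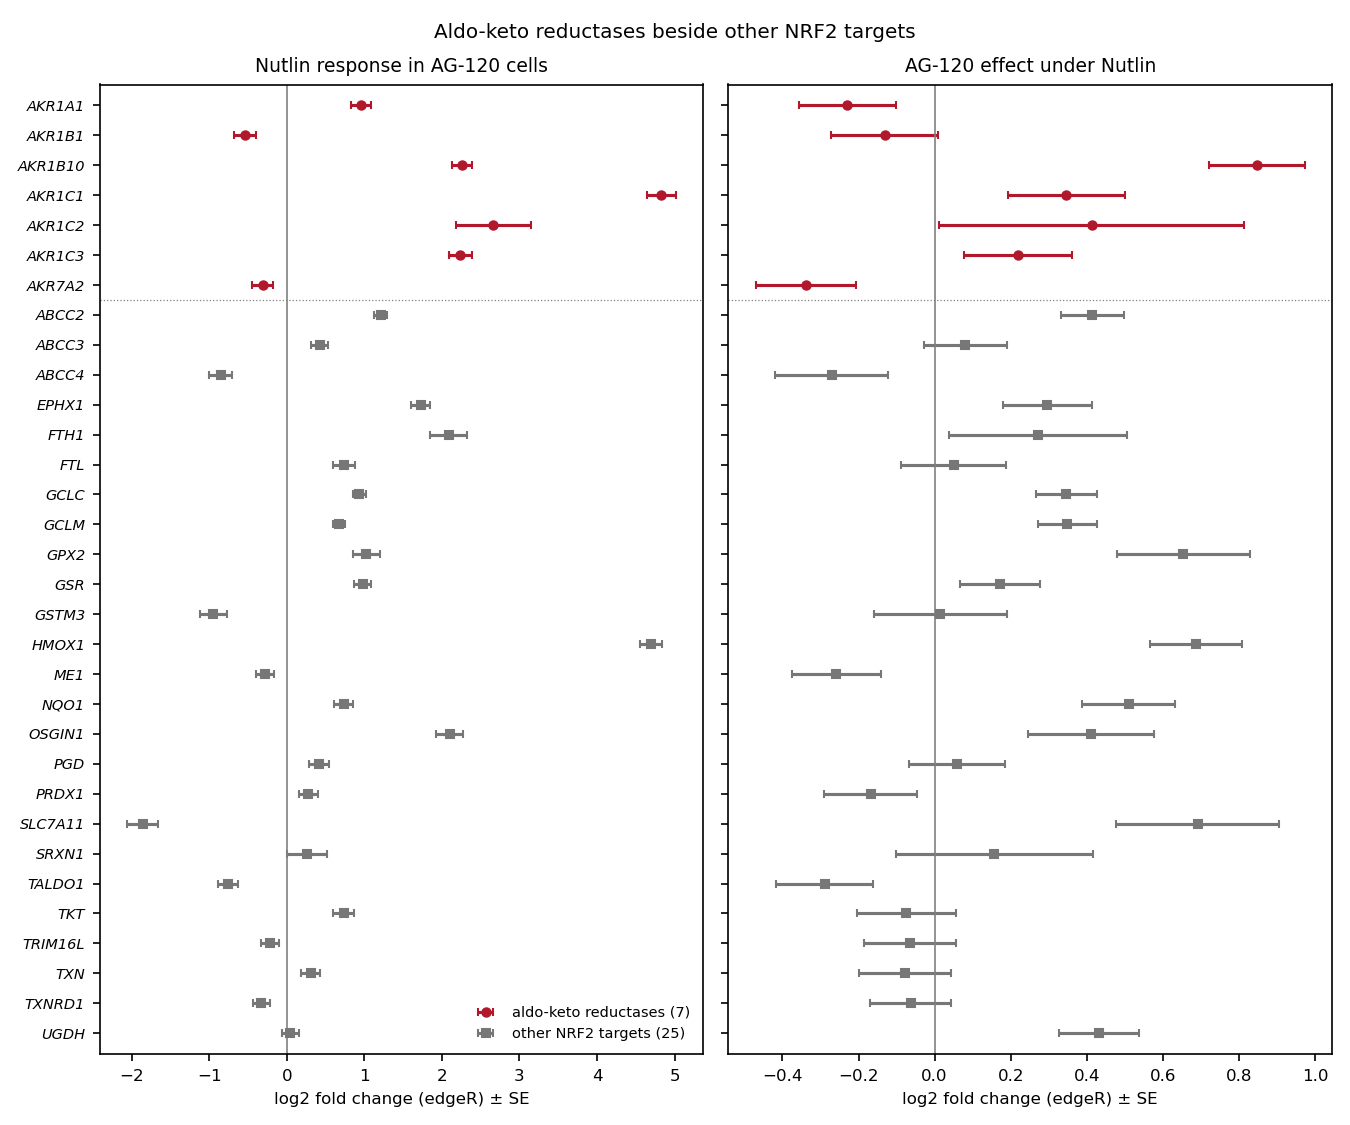
Log2 fold changes ± SE (x axes) of the 7 aldo-keto reductases (circles) and 25 other NRF2 targets (squares), one gene per row. The left panel is the Nutlin response in AG-120 cells, with AKR1C1 at 4.83 and HMOX1 at 4.70, and the right panel is the AG-120 effect under Nutlin, with AKR1B10 at 0.85 and HMOX1 at 0.69.

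Of 12 NRF2 regulators, NRF2 itself included, 6 rose, 2 fell and 4 did not pass between AG120_Nutlin and AG120, beside 27.0% higher and 28.8% lower among all genes, with a median of 0.38. NFE2L2 rose by 0.79, its partner MAFG by 1.63 and SQSTM1, the autophagy receptor that binds the NRF2 inhibitor KEAP1, by 1.56, while the relative NFE2L3 fell by 1.21. SQSTM1 averaged 1528 ± 38.2 CPM in AG120_Nutlin and 519.8 ± 9.51 CPM in AG120. In both AG-120 comparisons and in the interaction 0 of 12 passed.

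Of 19 other carbonyl and aldehyde reductases, 5 rose and 6 fell between AG120_Nutlin and AG120 (median 0.03), shares near the 27.0% and 28.8% of all genes. RDH10, which makes retinal from retinol, rose by 1.92, DHRS3, which reduces retinal back to retinol, by 1.88 and DHRS7 by 1.48, while the prostaglandin reductase PTGR1 fell by 0.60. DHRS3 was the only one of the 19 that passed under Nutlin, lower with AG-120 (-0.57), at 82.2 ± 4.52 CPM in AG120_Nutlin and 122 ± 25.1 CPM in vehicle_Nutlin, a call that ended in each fit without an AG120_Nutlin replicate (edgeR adjusted p = 0.14, 0.2043 and 0.1608), with only these 2 groups fitted (0.2236) and with DESeq2 size factors (0.05493). Without vehicle_Nutlin replicates 2 and 3 and AG120 replicate 1 DHRS3 was at -0.38. Of 15 steroid and bile acid enzymes 3 rose and 6 fell (median -0.23), with HSD3B7 at -1.11 and HSD17B4 at -0.50, and none passed with AG-120. HSD17B14 had 225 counts in AG120_Nutlin and 6 in AG120, and HSD17B6 had 0 counts in AG120_Nutlin and 30 in AG120, at least 8.60-fold lower if the 0 is taken as 3 counts in the 3 libraries together. Of 9 prostaglandin genes 1 rose and 6 fell (median -0.77), with the cyclooxygenase PTGS1 at -2.91, the prostaglandin dehydrogenase HPGD at -1.80, PTGES3 at -0.77 and PTGFRN at -0.67. HSD17B14 and the prostaglandin gene PLA2G4A passed the count filter only through Nutlin libraries, and HSD17B6 only through libraries without Nutlin. Their places in these counts are descriptions, not tests, and the other genes of these lists were not checked for this.

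SORD and KHK, which act after AKR1B1 in the use of glucose through sorbitol and fructose, fell with Nutlin in AG-120 cells. Of 8 polyol and osmolyte genes 3 rose and 4 fell between AG120_Nutlin and AG120 (median -0.13): the ketohexokinase KHK fell by 2.87, GLO1 by 1.09 and SORD, the sorbitol dehydrogenase, by 1.03, while HSPA4L rose by 1.5. SORD was also lower with AG-120 under Nutlin (-0.69), at 25.3 ± 1.17 CPM in AG120_Nutlin and 40.7 ± 10.9 CPM in vehicle_Nutlin, a call that ended in each fit without an AG120_Nutlin replicate (edgeR adjusted p = 0.1386, 0.194 and 0.1608), with only these 2 groups fitted (0.2298) and with DESeq2 size factors (0.05074). SORD was at -0.45 without vehicle_Nutlin replicate 3. The taurine transporter SLC6A6 passed in the interaction (0.87 ± 0.15 SE, edgeR adjusted p = 0.02379). Of 9 retinoid genes 2 rose and 3 fell (median 0.05): the receptor RARG rose by 1.83 and the retinol transporter STRA6 by 2.09, while CRABP2 fell by 1.33 and CYP26A1, which degrades retinoic acid, had 3 counts in AG120_Nutlin and 44 in AG120. CYP26A1 passed the count filter only through libraries without Nutlin, so its place among those that fell is a description, not a test. ALDH1A3, which makes retinoic acid, was lower with AG-120 under Nutlin (-0.95), at 46.9 ± 0.036 CPM in AG120_Nutlin and 90.3 ± 2.08 CPM in vehicle_Nutlin, and it passed in all 14 alternatives. Without Nutlin the levels were similar, 45.3 ± 11.5 CPM in AG120 and 84.3 ± 1.94 CPM in vehicle, although ALDH1A3 did not pass there. Its interaction was -0.05 (edgeR adjusted p = 0.9451).

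The genes whose pattern over the 12 libraries was most like that of AKR1C1, by the root mean square difference of centred log2 CPM among 10962 genes, were GLS2 (0.263), CDKN1A (0.277), 2 entries with clone-based names (0.334 and 0.335) and SRGAP3 (0.345). For AKR1B10 they were the receptor kinase MERTK (0.183), CYP4F11 (0.202), PCMTD1 (0.227), SLC12A4 (0.254) and SDC1 (0.255). MERTK averaged 20.6 ± 0.87 CPM in AG120_Nutlin, 4.81 ± 0.17 in AG120, 12.4 ± 0.67 in vehicle_Nutlin and 3.79 ± 0.45 in vehicle. Among the members AKR1B10 and AKR1C3 were alike (0.306), as were AKR1B1 and AKR7A2 (0.222), while AKR1C1 was 1.23 from its nearest member, AKR1C3. All these likenesses share the split between libraries with and without Nutlin, and they are descriptions of the same 12 libraries.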

How the data were processed

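Per the labels' protocols, poly(A) RNA was sequenced as paired reads of 150 bases. The submitters' processing notes name Partek, STAR, HTSeq, DESeq2 and the build hg19, without versions or roles, and how reads shared by near-identical genes or by strands were counted is not given in the sources used here. The authors deposited raw counts per gene for 12 libraries, with no normalization and no row without a gene name. Of 55773 entries 29603 held a count. Deposited stops lie 1 base past the last base, tested on 13 mitochondrial genes, and were corrected.

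The main test was the quasi-likelihood F test of edgeR 4.0.16 (R 4.3.3, limma 3.58.1) on the 15691 genes that filterByExpr kept. Scaling was TMM, the spread was estimated from all 12 libraries together, and each of the 4 groups had its own coefficient. Each of 5 comparisons was adjusted by Benjamini-Hochberg over every tested gene, with 0.05 as the threshold for a call. CPM levels come from the deposited counts and TMM-scaled library sizes. A log2 fold change is that of the model, and its SE is the change divided by the square root of F. Its 95% interval uses the residual degrees of freedom of the 12 libraries alone and is therefore wider than the p, which also draws on the other genes, would give. The script was tested on simulated data. No 2 libraries of a group agreed within sampling noise.

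The members, the 8 context lists and the marker lists were chosen with earlier results of these data known. All 7 members were named in every comparison. Of each list the text names up to 4 genes with the smallest adjusted p in the Nutlin response in AG-120 cells and any called with AG-120, apart from 1 gene counted in its list and not reported here, and the pattern search took the 5 nearest genes that averaged 5 CPM or more (prior count 2). The alternatives tried were leaving the filter out or asking for 1 CPM in 3 libraries, scaling by library totals or by DESeq2 size factors, DESeq2 1.42.0 itself, the replicate block, only the compared groups, 1 library left out at a time, vehicle_Nutlin replicates 2 and 3 and AG120 replicate 1 left out together (a choice made with earlier results known, and not the 3 largest deviations), and the AKR1C counts summed. Sequences were compared with Biopython 1.88.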

Additional observations from a re-analysis of the deposited data

Results flagged for a closer look

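The response of HMOX1 to Nutlin differed between AG-120 and vehicle cells by 0.96 on the log2 scale (interaction term of edgeR, adjusted p = 0.04483). HMOX1 averaged 208 ± 3.10 CPM in AG120_Nutlin and 8.02 ± 1.54 CPM in AG120, and 129 ± 3.02 CPM in vehicle_Nutlin and 9.71 ± 1.20 CPM in vehicle (SD, n = 3). The call held in 7 of 19 alternatives, with adjusted p from 0.0004052 to 0.1589, and the difference stayed between 0.82 and 1.09.

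The response of SLC6A6 differed by 0.87 (edgeR adjusted p = 0.02379). It averaged 95.2 ± 1.10 CPM in AG120_Nutlin and 65.3 ± 5.61 CPM in AG120, and 71.1 ± 9.12 CPM in vehicle_Nutlin and 89.4 ± 3.7 CPM in vehicle, so it was higher with Nutlin in AG-120 cells and lower with it in vehicle cells. The call held in 11 of 19 alternatives, with adjusted p from 9.015e-06 to 0.1088. Groups of 3 libraries were too small to flag single libraries.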

How the results depend on the processing

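The Nutlin response in AG-120 cells kept its direction for all 7 members in every alternative, and the 5 calls outside AKR1C2 held. AKR7A2 passed there with library totals (edgeR adjusted p = 0.0382), with only the compared groups (0.002882) and without vehicle_Nutlin replicates 2 and 3 and AG120 replicate 1, 3 libraries left out together (0.0003422). In vehicle cells the AKR7A2 value changed sign: it was -0.085 with library totals, -0.0080 without a filter, -0.0071 with the replicate block, -0.31 without the 3 libraries and from -0.20 to 0.14 with 1 library left out. For AG-120 without Nutlin, the members called numbered 2 with DESeq2, 2 without a filter, 2 with only the compared groups and 3 without the 3 libraries, against 0, and it was 0 in each fit with 1 library left out. Without the 3 libraries AKR1B1 was at 0.10 and AKR1C2 at 0.25, and with 1 library left out AKR1B1 ran from -0.13 to 0.10, AKR1C2 from -0.56 to 0.24 and AKR7A2 from -0.076 to 0.016. For AG-120 under Nutlin, the members called numbered 0 with only the compared groups, 3 without the 3 libraries and 1 to 3 with 1 library left out, against 1. AKR1A1 was at 0.020 and AKR1B1 at 0.014 without the 3 libraries, and AKR1B1 ran from -0.21 to 0.018 with 1 left out. In the interaction 1 member, AKR1B10, passed without the 3 libraries and 0 to 1 with 1 left out, against 0, and AKR1B1 ran from -0.23 to 0.055. The fit without the 3 libraries has 1 vehicle_Nutlin library, assumed to vary like the other groups, and it and the fit without a filter test other numbers of genes. The cause of these changes was not tested.

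Over all genes, the calls for AG-120 without Nutlin numbered 8, against 90 with DESeq2, 104 without a filter, 13 with 1 CPM in 3 libraries, 29 with only the compared groups and 908 without the 3 libraries. Under Nutlin they numbered 371, against 837, 1272, 415, 15 and 1374. In the interaction they numbered 57, against 200 with DESeq2, 283 without a filter and 637 without the 3 libraries. With 1 library left out they ran from 1 to 9, from 61 to 1037 and from 23 to 243. With library totals the median log2 fold change of all genes in the vehicle response was -0.10, against -0.015.

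Same-numbered replicates deviated together with r from -0.22 to 0.12 (median -0.02, 18 pairs). Replicates with different numbers had r from -0.19 to 0.21 (median 0.02, 36 pairs). The numbers thus showed no sign of pairing, but such values cannot tell whether the samples were handled as pairs. With the replicate block the members called stayed at 0 for AG-120 without Nutlin, 1 under Nutlin and 0 in the interaction, the NRF2 targets called under Nutlin numbered 2, against 6, the DHRS3 and SORD calls under Nutlin and the HMOX1 interaction ended (edgeR adjusted p = 0.08039, 0.07149 and 0.09153), and calls over all genes were 4 without Nutlin, 211 under Nutlin and 32 in the interaction. AKR1C2, with 2 to 36 counts per library, is the member that depth limits most.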
